A study of Homo sapiens with 21 samples.

Results

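The 10 genes described here are heat shock chaperone genes of the cytosol and the mitochondrial matrix, with their main activator HSF1 counted among them. They are HSF1, HSPA8, HSPA1A, HSPA1B, DNAJA1, DNAJB1, HSPH1, HSP90AA1, HSPD1 and HSPE1. They were taken by name from a table of 58735 genes, and all 10 had enough counts to be among the 16196 genes tested. RNA sequencing measured their transcripts in cultures labelled HepG2, the name of a human hepatoma line, that had spent 6 h in DMEM without serum. Coumarin, a plant fragrance compound, was added at 0.001, 0.01, 0.1, 1, 10 or 100 µM, and untreated cells (0 µM) had the same medium. Each of the 7 groups had 3 libraries, which the design text calls biological replicates; nothing says that they came from separate passages of the line, so p-values measure the spread between these samples.

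Total counts were 27984517 to 43704155 per library, and mitochondrial transcripts took 5.61% to 6.63% of them. The label was not borne out by the defining genes of hepatocytes: ALB, SERPINA1 and FGB had 0 reads in all 21 libraries, which allows up to 0.107 CPM in the shallowest one, and 11 of 12 hepatocyte markers were too low to be tested. The keratin KRT7 stood at 1213 ± 60.2 CPM and the collagen COL3A1 at 937 ± 27.9 CPM (SD, n = 21), so the values below are those of the cells as sequenced. CPM here are counts scaled to the library total with TMM factors between libraries. SDs and standard errors include the spread between libraries, while floors cover counting error only. In bulk RNA, a change in the number of cells of a kind and a change in RNA per cell cannot be told apart.

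Chaperones bind unfolded proteins and help them fold. HSF1 is the transcription factor that switches on their genes in stressed cells: chaperones hold it inactive, and when unfolded proteins draw the chaperones away it binds heat shock elements, which are inverted repeats of the letters GAA. HSPA8 is the constitutive cytosolic HSP70, HSPA1A and HSPA1B are its stress-inducible relatives, DNAJA1 and DNAJB1 are HSP40 co-chaperones that bring clients to HSP70 and speed its ATPase, and HSPH1 is an exchange factor that releases its nucleotide. HSP90AA1 is the inducible cytosolic HSP90, which matures kinases and steroid receptors, and HSPD1 and HSPE1 form the barrel and the lid of the mitochondrial chaperonin.

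Heat shock elements in the promoters are shown first, because they are the sites that the activator of these genes binds. Windows from 250 bases before to 50 after each start site (RefSeq, GRCh38.p14) were searched on both strands for a pair of repeats, GAANNTTC or TTCNNGAA, and for a triple, GAANNTTCNNGAA or TTCNNGAANNTTC, which holds 2 overlapping pairs. Of the 10 genes, 9 matched the table, the exception being HSF1. A pair was found for 7 genes and a triple for 4, against a pair in 13.5% and a triple in 0.49% of all 35116 windows. The stretches below are 30 bases long, read 5′ to 3′ on the strand of the gene, with the repeats in capitals.
HSPA8, distal triple: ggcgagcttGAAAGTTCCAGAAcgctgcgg
HSPA8, proximal triple: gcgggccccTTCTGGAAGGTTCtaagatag
DNAJA1, triple: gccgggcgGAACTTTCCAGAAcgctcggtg
HSP90AA1, triple and separate pair: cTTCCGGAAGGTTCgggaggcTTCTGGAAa
HSPD1, 2 overlapping triples: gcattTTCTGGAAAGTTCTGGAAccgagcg
HSPA1A, pair: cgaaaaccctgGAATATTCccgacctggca
HSPA1B, pair: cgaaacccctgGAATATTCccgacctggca
DNAJB1, distal pair: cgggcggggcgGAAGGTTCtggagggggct
DNAJB1, proximal pair: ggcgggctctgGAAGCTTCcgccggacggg

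The HSPA8 stretches lie at chr11:123062346-123062375 and chr11:123062171-123062200 on the minus strand. The first crosses the edge of annotated HSPA8 exons and the second is inside the 5′ UTR of a longer HSPA8 transcript (GENCODE v29). The DNAJA1 stretch, chr9:33025268-33025297 on the plus strand, spans the RefSeq start and is in an annotated UTR. The HSP90AA1 stretch is at chr14:102087104-102087133 on the minus strand, upstream of the second RefSeq start and in the UTR of a longer transcript. The HSPD1 stretch, chr2:197500061-197500090 on the minus strand, lies in annotated UTRs of both HSPD1 and HSPE1, which run in opposite directions from this region. HSPA1A (chr6:31815426-31815455) and HSPA1B (chr6:31827622-31827651), both on the plus strand, have their pair upstream of any annotated exon, and the DNAJB1 stretches (chr19:14518456-14518485 and chr19:14518426-14518455, minus strand) are upstream of its second start, in an intron of a longer transcript and inside the oppositely oriented gene TECR. No match was found in the windows of HSPH1 and HSPE1, which says only that these letters are not there.

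Per gene length, HSPA8 and HSP90AA1 were the most abundant of the 10 transcripts. In FPKM, the fragments per kilobase of gene length and per library size that the authors deposited, HSPA8 averaged 606 ± 46.5 and HSP90AA1 558 ± 27.7 over the 21 libraries (SD). The 2 chaperonin subunits stood at 351 ± 11.6 for HSPD1 and 65.7 ± 3.55 for HSPE1, although they work together. Comparisons between genes are rough. FPKM takes 4245 and 1977 bases for these 2, where the longest transcripts have 2455 and 950. Of the 50-base words of those transcripts, 24.8% and 27.2% occur in other genes. DNAJA1 followed HSPD1 at 197 ± 11.0 FPKM, then HSPA1A at 147 ± 10.8, DNAJB1 at 90.1 ± 4.47 and HSPA1B at 81.6 ± 6.39. The inducible HSP70 genes were thus well transcribed in every group, untreated cells included. HSPH1 at 32.6 ± 1.32 and HSF1 at 19.2 ± 1.18 FPKM were the lowest. The ranges over libraries overlapped for HSPA8 with HSP90AA1, DNAJB1 with HSPA1B and HSPA1B with HSPE1, and did not for the other 6 neighbouring pairs. In FPKM, HSPA8 was above HSP90AA1 in 18 of 21 libraries, and the 3 exceptions were the 3 libraries at 100 µM. That order depends on the gene lengths used, 4849 and 5248 bases, where the longest transcripts have 2463 and 3510. In CPM, HSPA8 was below HSP90AA1 in some lower-dose libraries too, such as the 10 µM replicate 1 (3004 against 3154 CPM).

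At 100 µM, HSPA8, HSPA1A and their partner genes DNAJA1 and HSPH1 were lower than in untreated cells, while the activator gene HSF1 and the chaperonin lid gene HSPE1 were higher. Of the 10 genes, 4 were called lower (HSPA8, HSPA1A, DNAJA1 and HSPH1) and 2 higher (HSF1 and HSPE1), in an edgeR quasi-likelihood test adjusted by Benjamini-Hochberg over 16196 genes. Of all genes tested, 8.58% were called, 4.82% lower and 3.77% higher. The median log2 fold change was -0.13 over the 10 genes and 0.0025 over all genes. The largest of the 10 changes, that of HSPA8, left 80.1% of the level in untreated cells. Without untreated replicate 2, or without the 100 µM replicate 1, 3 of the 10 genes were called: HSPA8, DNAJA1 and HSPA1A.

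**Figure D1:**
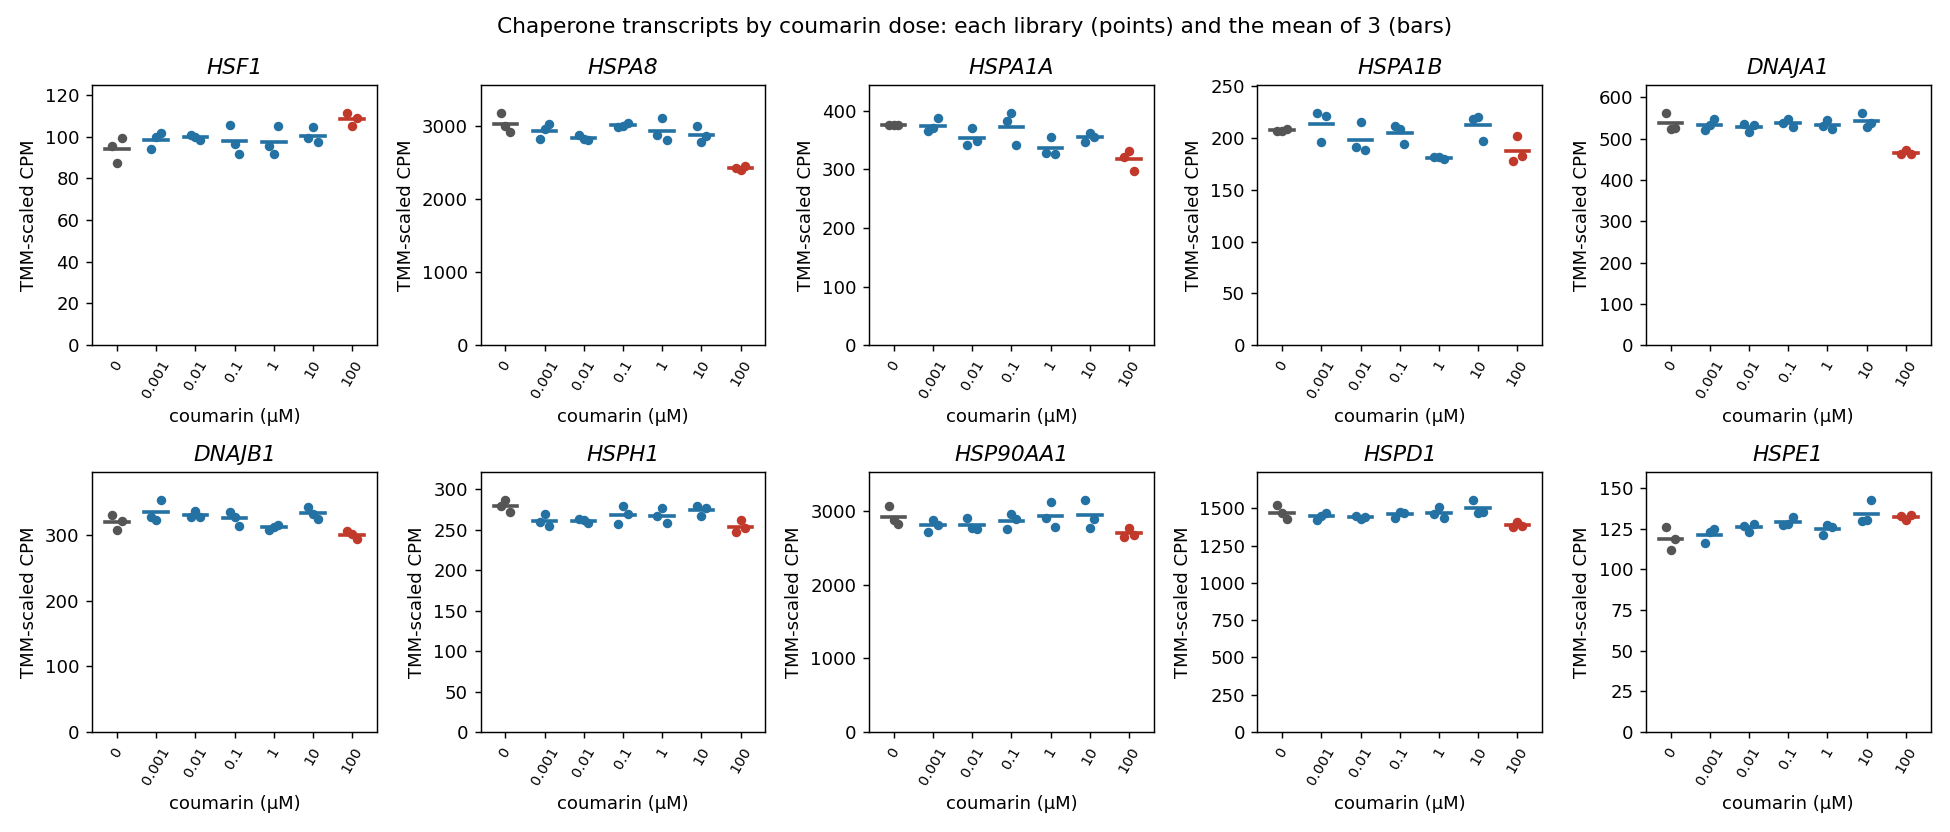
TMM-scaled CPM (vertical axis, from 0) of each of the 10 genes by coumarin dose in µM; points are libraries, 3 for each dose, and bars are their means. HSPA8 and DNAJA1 are lower in the 3 libraries at 100 µM than in all 18 others, while HSF1 and HSPE1 are higher at 100 µM than at 0 µM.

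HSPA8 (ENSG00000109971, chromosome 11, 123057489 to 123063230, minus strand) had 2422, 2404 and 2454 CPM in the 3 libraries at 100 µM, against 3179, 2993 and 2913 CPM in the 3 untreated libraries. In the 15 libraries from 0.001 to 10 µM it had 2778 CPM at the lowest, 2877 at the median and 3105 at the highest. The 3 libraries at 100 µM were below all 18 others and differed little among themselves; of the 15 at lower doses, 8 were also below every untreated library, though by far less. The means were 2426 ± 25.4 at 100 µM and 3028 ± 137 CPM in untreated cells (SD, n = 3 each), a log2 fold change of -0.32 (SE 0.04, edgeR adjusted p = 9.48e-07). The difference of -602 CPM was the second largest fall of any gene tested, after the mitochondrial ribosomal RNA gene MT-RNR2. Summed over the 10 genes, the transcripts took 0.832% to 0.844% of counts at 100 µM, against 0.909% to 0.969% in untreated cells and 0.884% to 0.967% at the doses between.

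Of the inducible pair, HSPA1A was called and HSPA1B was not. HSPA1A (chromosome 6, 31815464 to 31817946, plus strand) had 321, 332 and 297 CPM at 100 µM, against 376, 376 and 375 CPM in untreated cells. The untreated libraries were unusually close together, and all 3 libraries at 100 µM were below them. Of the 15 libraries at lower doses, 12 were also below every untreated one and 3 were above. HSPA1A was called lower, with a log2 fold change of -0.25 (SE 0.05, edgeR adjusted p = 0.000613). HSPA1B (chromosome 6, 31827735 to 31830255, plus strand) had 178, 202 and 183 CPM at 100 µM, against 207, 207 and 209 CPM in untreated cells. Its groups did not overlap either, but it was not called, at -0.15 (SE 0.06, edgeR adjusted p = 0.102). For HSPA1B, 8 of the 15 libraries at lower doses were below every untreated one and 6 were above. Reads of these 2 genes cannot be fully separated: of the 50-base words in the longest transcript, 72.6% of those of HSPA1A and 71.4% of those of HSPA1B occur in the other. Counted as 1 gene, they were lower by a log2 fold change of -0.21 (edgeR adjusted p = 0.00219).

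Both genes were also low at 1 µM, a dose at which the other 8 had log2 fold changes of -0.06 to 0.07. HSPA1B averaged 181 ± 1.30 CPM and HSPA1A 336 ± 15.9 CPM there (SD, n = 3), with all 3 libraries below the untreated ones. The log2 fold changes against untreated cells were -0.20 for HSPA1B and -0.16 for HSPA1A, and the edgeR adjusted p was 1 for both, with unadjusted p of 0.00136 and 0.00174. At 10 µM HSPA1B stood at 212 ± 12.7 CPM, so its levels did not follow dose.

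The HSP40 gene DNAJA1 (chromosome 9, 33025211 to 33039907, plus strand) had 462, 472 and 464 CPM at 100 µM, against 561, 523 and 526 CPM in untreated cells. The 15 libraries between ran from 516 through a median of 533 to 562 CPM, so only the highest dose stood apart. Its log2 fold change against untreated cells was -0.20 (SE 0.04, edgeR adjusted p = 0.000184). DNAJB1 (chromosome 19, 14514770 to 14529770, minus strand), the HSP40 that works with HSP70 on aggregated proteins, had 306.9, 301 and 294 CPM at 100 µM, against 331, 307.4 and 322 CPM in untreated cells. The groups came within 1 CPM of each other, and DNAJB1 was not called, at -0.09 (SE 0.04, edgeR adjusted p = 0.136). DNAJB1 overlaps TECR on the other strand, and the sources used here do not say whether counting used strand.

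HSPH1 (chromosome 13, 31134974 to 31162388, minus strand) had 247, 262 and 252 CPM at 100 µM, against 279, 287 and 273 CPM in untreated cells. It was called lower at -0.14 (SE 0.04, edgeR adjusted p = 0.0158), but 11 of the 15 libraries at lower doses lay below every untreated one too, with a lowest value of 255, a median of 267 and a highest of 279 CPM. The call ended without untreated replicate 1 (adjusted p = 0.0587) or 2 (0.092), without the 100 µM replicate 1 (0.125) or 3 (0.0619), and with length and GC offsets (-0.066, adjusted p = 0.145).

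HSP90AA1 (chromosome 14, 102080738 to 102139699, minus strand) had 2651, 2769 and 2675 CPM at 100 µM, against 3062, 2872 and 2826 CPM in untreated cells. Every library at 100 µM was below every untreated one, yet HSP90AA1 was not called, at -0.11 (SE 0.05, edgeR adjusted p = 0.114). Libraries of 0.001 to 10 µM spanned both groups, from 2720.1 to 3154 CPM. Because of the high level of HSP90AA1, the difference of -221 CPM at 100 µM was still the fifth largest fall of all genes tested.

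The chaperonin subunits did not follow each other. HSPD1 (chromosome 2, 197486581 to 197516737, minus strand) had 1377, 1406 and 1378 CPM at 100 µM, against 1519, 1468 and 1426 CPM in untreated cells, and was not called, at -0.08 (SE 0.03, edgeR adjusted p = 0.124). HSPE1 (chromosome 2, 197499994 to 197503457, plus strand) had 133, 130.4 and 133 CPM at 100 µM, against 126, 112 and 119 CPM in untreated cells. HSPE1 was called higher, at 0.15 (SE 0.04, edgeR adjusted p = 0.0222). The ratio of HSPD1 to HSPE1 in FPKM was 4.89 ± 0.117 at 100 µM and 5.78 ± 0.29 in untreated cells (SD, n = 3 each), with no overlap (exact permutation test, two-sided p = 0.1, the smallest that 3 against 3 allows). Libraries of 0.001 to 10 µM ran from 4.81 to 5.69, with a median of 5.36. HSPE1 itself was above every untreated library in 10 of those 15. The call of HSPE1 ended without untreated replicate 2 (adjusted p = 0.179), without the 100 µM replicate 1 (0.0768) or 3 (0.0799), with offsets for gene length (0.0965) and with limma on log2(FPKM + 1) (0.053). HSPE1 is the shortest of the 10, at 1977 bases, and overlaps HSPD1 on the other strand; 27.2% of its 50-base words occur in other genes.

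**Figure D2:**
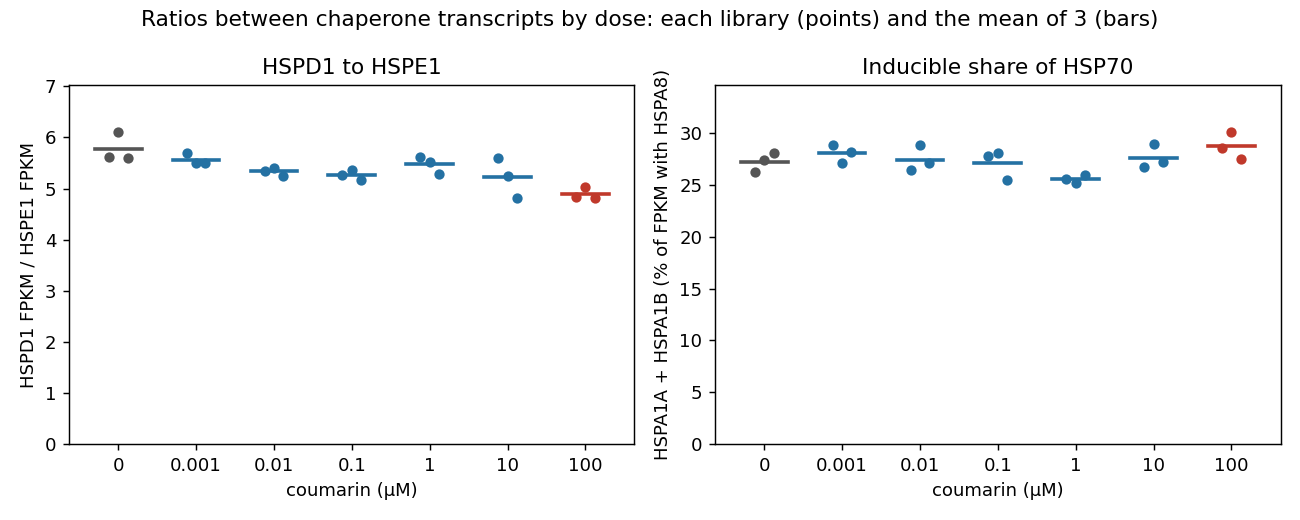
Left, the ratio of HSPD1 to HSPE1 in FPKM, and right, HSPA1A and HSPA1B as a percentage of the summed FPKM of HSPA1A, HSPA1B and HSPA8, by coumarin dose in µM; points are libraries and bars are means of 3. The ratio averages 4.89 at 100 µM and 5.78 at 0 µM, and the percentage 28.7 at 100 µM and 27.2 at 0 µM.

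The inducible share of cytosolic HSP70 averaged slightly higher at 100 µM than in untreated cells. HSPA1A and HSPA1B made up 28.7% ± 1.31 of the summed HSP70 FPKM at 100 µM and 27.2% ± 0.898 in untreated cells (SD, n = 3 each; exact permutation test, two-sided p = 0.2). The groups overlapped, with 27.5% to 30.1% at 100 µM and 26.3% to 28.0% in untreated cells. The smallest p that 3 against 3 allows is 0.1, so the test could not decide whether the share moved. The share depends on gene length: FPKM takes 4849 bases for HSPA8, whose longest transcript has 2463, and 2483 for HSPA1A, whose longest transcript has 2483. In counts in place of FPKM it was 16.4% to 18.2% at 100 µM and 15.5% to 16.7% in untreated cells.

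HSF1 (chromosome 8, 144291591 to 144314722, plus strand), the activator of these genes, was higher. It had 111, 105 and 109 CPM at 100 µM, against 95.4, 87.1 and 99.3 CPM in untreated cells. All 3 libraries at 100 µM were above all 3 untreated ones, with a log2 fold change of 0.21 (SE 0.05, edgeR adjusted p = 0.0103). Libraries of 0.001 to 10 µM reached from 91.7 to 106 CPM, so the highest of them exceeded the lowest at 100 µM, and 7 of the 15 were above every untreated library. The call ended without untreated replicate 2 (adjusted p = 0.0991), without the 100 µM replicate 1 (0.0672) and with limma on log2(FPKM + 1) (0.0532). HSF1 has the highest GC content of the 10, at 64.7%, and overlaps DGAT1 on the other strand.

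**Figure D3:**
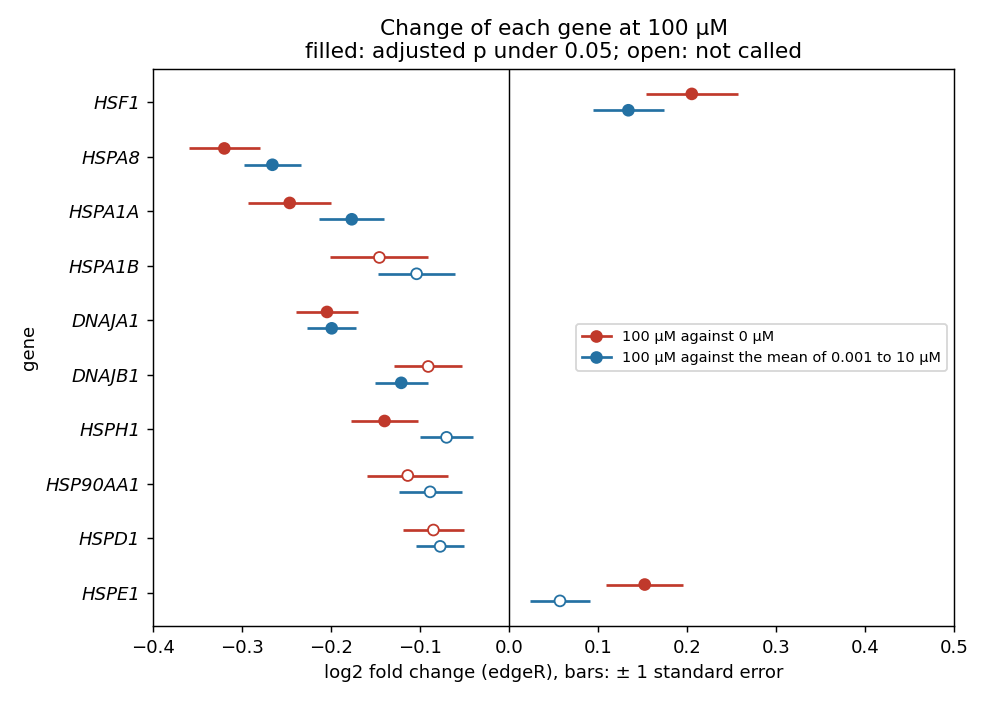
Log2 fold change (horizontal axis) of each gene at 100 µM against 0 µM (red) and against the mean of 0.001 to 10 µM (blue), with bars of 1 standard error; filled points passed an edgeR adjusted p of 0.05. HSPA8 is lowest in both, at -0.32 and -0.27, and HSF1 highest in both, at 0.21 and 0.13.

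The contrast with the 15 libraries of the 5 lower doses gives the untreated libraries no weight, but they are in the same fit and its spread. It also shares the 100 µM libraries with the contrast above. Against the lower doses, 10.1% of all genes were called, 5.67% lower and 4.4% higher. HSPA8 was lower at a log2 fold change of -0.27 (SE 0.03, edgeR adjusted p = 2.28e-07) and DNAJA1 at -0.20 (SE 0.03, adjusted p = 4.35e-06). HSPA1A at -0.18 (adjusted p = 0.00121) and DNAJB1 at -0.12 (adjusted p = 0.00597) were lower too, and HSF1 was higher at 0.13 (adjusted p = 0.0257). HSPH1 at -0.07 (adjusted p = 0.13) and HSPE1 at 0.06 (adjusted p = 0.306), both called against untreated cells, were not called here. The edgeR call of HSPA1A ended without the 100 µM replicate 3 (adjusted p = 0.0553), that of DNAJB1 without replicate 2 (0.0506) or 3 (0.0821), and that of HSF1 without replicate 1 (0.191) or 3 (0.116) and with limma (0.104).

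All 10 genes separated the 3 libraries at 100 µM from the 3 untreated ones, 8 with every library at 100 µM below and 2 with every one above. Among all genes tested, 13.9% were below and 13.1% above in that way. Against the 15 libraries of lower doses, HSPA8, DNAJA1, DNAJB1 and HSPD1 had all 3 libraries at 100 µM below every other, as did 3.75% of all genes, and no member had all 3 above, as did 2.68%.

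Below 100 µM none of the 10 was called by edgeR. At 10 µM, 0.321% of all genes were called, 0.241% higher and 0.0803% lower; HSPE1 came nearest among the 10, at 134 ± 7.56 CPM against 119 ± 7.05 CPM in untreated cells (SD, n = 3 each; log2 fold change 0.18, edgeR adjusted p = 0.0639, and called by DESeq2). At 0.001, 0.01, 0.1 and 1 µM edgeR called 0 genes of all tested (DESeq2 called 0, 1, 1 and 1, and edgeR with no filter on low counts 10, 20, 5 and 2, with HSPA1B among them at 1 µM), while 1330, 1415, 987 and 609 had an unadjusted p under 0.05, among them 1, 2, 1 and 2 of the 10. All these comparisons share the untreated libraries. DESeq2 and limma on FPKM called none of the 10 at these 4 doses.

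Over all 7 groups, edgeR found a difference for 6 of the 10 genes, where 4.65% of all genes were called: HSPA8 (adjusted p = 1.17e-05), DNAJA1 (0.000577), HSPA1A (0.00237), HSPA1B (0.0276), DNAJB1 (0.0487) and HSPE1 (0.0487). Among the 6 treated doses alone it found 5, the same without HSPE1, where 4.43% were called. HSF1 and HSPH1, both called at 100 µM against untreated cells, were not called over the 7 groups (edgeR adjusted p = 0.181 and 0.155). Nor were they among the treated doses (0.308 and 0.37). DNAJB1 and HSPE1 were not called over the 7 groups with DESeq2 size factors or with robust moderation off, which left 4, and HSPA1B was not with length and GC offsets. Over the 7 groups the count was 3 (HSPA8, DNAJA1 and HSPA1A) without the 1 µM replicate 1 or 2 or the 100 µM replicate 1 or 3. Among treated doses it was 3 without the 1 µM replicate 1 or the 100 µM replicate 1; leaving out replicate 3 of 100 µM gave 2. In a straight line over log10 dose, HSPA1A was the 1 gene called, at -0.038 log2 units for each 10-fold of dose (SE 0.01, edgeR adjusted p = 0.032), where 2.62% of all genes were called, 1.41% downward and 1.22% upward. That call ended without the 0.001 µM replicate 2 or 3, the 0.01 µM replicate 2 or any of the 100 µM replicates. HSPA8 had -0.037 (adjusted p = 0.0861). Fitted as a contrast within the 7 groups, whose spread excludes departures from the line, the slope was called for 5 of the 10, where 4.45% of all genes were called.

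Within doses, 4 genes varied together from library to library. After each dose mean was subtracted from log2 CPM, Pearson's r over the 21 libraries was 0.92 for HSP90AA1 with HSPD1, 0.89 for HSPA8 with HSPD1, 0.86 for DNAJA1 with HSPD1 and 0.85 for HSPA8 with HSP90AA1. HSPA1A and HSPA1B varied with each other (0.52) and hardly with HSPA8 (0.09 and -0.14). HSF1 ran against HSPH1 (-0.75). Of 45 pairs, 33 were positive and 11 exceeded 0.5, with a median of 0.178. These values are a description: both genes of a pair come from the same libraries, each with its own depth and base composition. HSF1 and HSPH1 are the extremes of the 10 in GC content, at 64.7% and 40%.

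**Figure D4:**
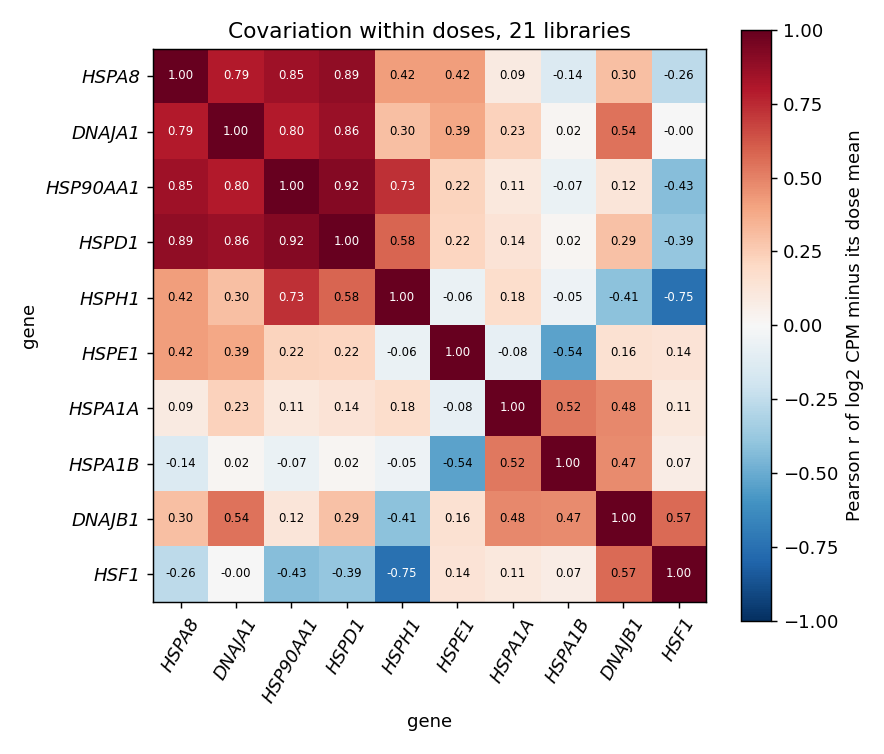
Pearson's r between pairs of genes over 21 libraries, computed on log2 CPM minus the mean of each dose; red is positive and blue negative. HSPA8, DNAJA1, HSP90AA1 and HSPD1 form a positive block, with 0.92 for HSP90AA1 with HSPD1, and HSF1 with HSPH1 is at -0.75.

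Genes whose profile over the 21 libraries was close to that of HSPA8, by Pearson's r on log2 CPM among 11620 genes, included the replication helicase gene MCM4 (r = 0.945), the proteasome subunit gene PSMD1 (0.935), HSPA4 (0.926) and ATXN10 (0.926). These values are a description: both genes of a pair come from the same libraries, which differ in depth and dose. Dose means were not subtracted here.

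In the wider chaperone network the change at 100 µM was uneven. Of 65 tested genes in 6 lists of partner genes, 3 were called higher, 10 lower and 52 were not called, with a median log2 fold change of -0.03 beside 0.0025 for all genes. Beside this stand the 3.77% of all genes called higher and 4.82% called lower; in a list of 11 or 12 genes, 1 call is near the 8.58% called in all. In the HSP70 system 5 of 20 genes were lower and 1 was higher, with a median of -0.09. HSPA4, an exchange factor of the HSPH1 family, averaged 279 ± 0.39 CPM at 100 µM and 317 ± 6.48 CPM in untreated cells (SD, n = 3 each; log2 fold change -0.18, edgeR adjusted p = 8e-04). BAG2, a co-chaperone that regulates the ubiquitin ligase STUB1, averaged 149.8 ± 4.33 CPM at 100 µM and 171 ± 4.86 CPM in untreated cells (-0.19, adjusted p = 0.000508). Both held in every alternative and with each library left out. HSPA4L, another exchange factor, was lower at -0.19 (adjusted p = 0.0117) and the ribosome-associated HSP70 gene HSPA14 at -0.28 (adjusted p = 0.0141); both calls ended without untreated replicate 2 (0.0622 and 0.0916) or the 100 µM replicate 1 (0.0699 and 0.112) and with limma on unfiltered FPKM (0.0598 and 0.0707). That of HSPA4L also ended without untreated replicate 1 (0.0701) and with length and GC offsets, at a log2 fold change of -0.09 (0.0743). A second row of the table carries the symbol HSPA14 and overlaps this one. The remaining calls of the list were DNAJB4, an HSP40, lower at 77.8 ± 2.81 CPM at 100 µM and 87.7 ± 7.53 CPM in untreated cells (-0.17, adjusted p = 0.0235), and HSPBP1, an exchange factor that binds HSP70, higher at 85.1 ± 3.52 CPM at 100 µM and 74.3 ± 6.31 CPM in untreated cells (0.19, adjusted p = 0.0491). The DNAJB4 call ended without untreated replicate 1 (0.272) or 2 (0.0618), without the 100 µM replicate 1 (0.163) and with limma on unfiltered FPKM (0.102). The HSPBP1 call ended in 14 of 21 cases of 1 library left out, untreated replicates 1 and 2 and all 3 of the 100 µM libraries among them (up to 0.255), and with DESeq2 size factors (0.051), limma (0.115), length offsets (0.053) and length and GC offsets, at a log2 fold change of 0.085 (0.175).

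Among HSP90 genes, the constitutive one was close to its untreated level. HSP90AB1 averaged 4130.3 ± 66.7 CPM at 100 µM and 4107 ± 160 CPM in untreated cells, a log2 fold change of 0.01 (SE 0.04, edgeR adjusted p = 0.928). Of 11 partners, CHORDC1 alone was called, lower at -0.15 (adjusted p = 0.0249); that call ended without untreated replicate 1 (0.137) or 2 (0.121), without the 100 µM replicate 1 (0.169) or 3 (0.0682) and with length offsets (0.0587). With length and GC offsets its log2 fold change was -0.044 (0.426). AHSA1, which stimulates the ATPase of HSP90, was at -0.09 (adjusted p = 0.106) and was called with length offsets (0.0219) and with length and GC offsets (-0.14, adjusted p = 0.000998). TTC4 was at 0.36 (adjusted p = 0.258) and CDC37, which brings kinases to HSP90, at 0.08 (adjusted p = 0.31). Against the lower doses 3 of the 11 were called, where 10.1% of all genes were: AHSA1 (-0.12, adjusted p = 0.00454) and CHORDC1 (-0.14, adjusted p = 0.00517) were lower, and the co-chaperone FKBP5 was higher (0.13, adjusted p = 0.0142). This edgeR call of AHSA1 ended without the 100 µM replicate 3 (adjusted p = 0.0632) and that of CHORDC1 without the 100 µM replicate 1 (0.105). Of 7 small heat shock protein genes, 4 were tested and 1 was called: the lens crystallin CRYAB, at 1.81 ± 0.107 CPM at 100 µM and 2.60 ± 0.372 CPM in untreated cells, was lower at -0.52 (adjusted p = 0.039), a call that ended without any 1 of 5 of the 6 libraries compared (adjusted p up to 0.17), with no filter on low counts (0.067) and with limma on unfiltered FPKM (0.106). HSPB1 was at 0.01 (adjusted p = 0.933), with its sign turned by length offsets (-0.038), while HSPB7 was at -0.13 (adjusted p = 0.111), and was called with length and GC offsets (-0.19, adjusted p = 0.00176), and HSPB8 was at -0.05 (adjusted p = 0.651). Against the lower doses HSPB7 was lower at -0.27 (SE 0.04, edgeR adjusted p = 9.84e-06), a call that stood under all alternatives run and with each library left out, and CRYAB was at -0.31 (adjusted p = 0.138).

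**Figure D5:**
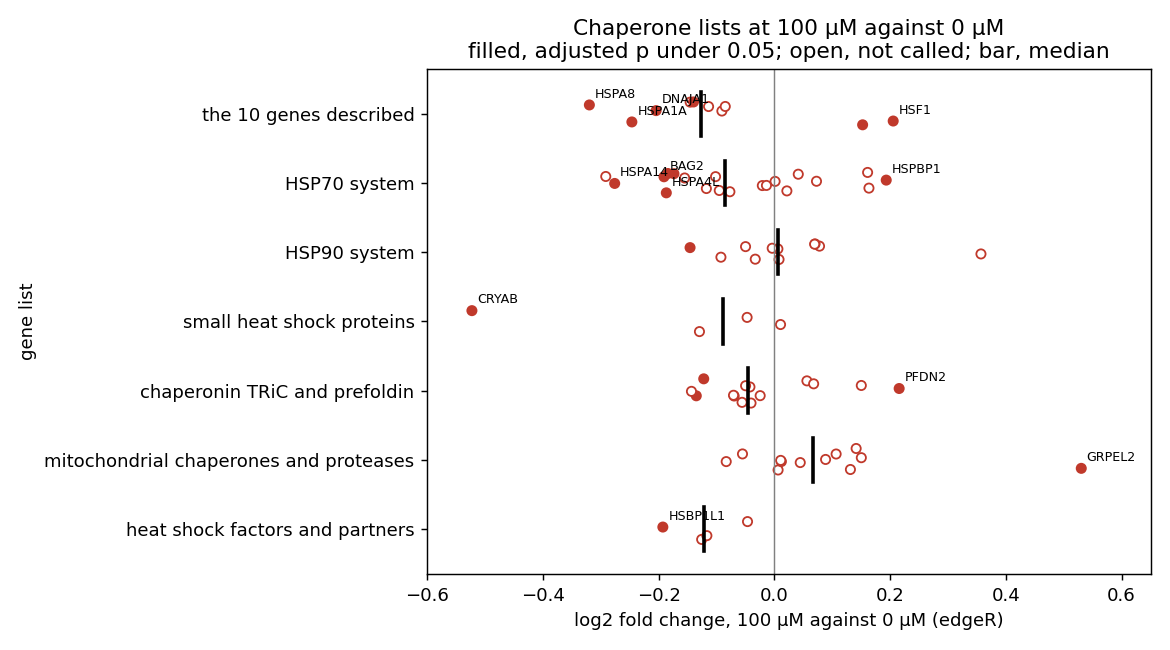
Log2 fold change at 100 µM against 0 µM (horizontal axis) for the 10 genes and the tested members of 6 partner lists; filled points passed an edgeR adjusted p of 0.05 and black bars are medians. The HSP70 system has 5 filled points below 0 and 1 above, and GRPEL2, at 0.53, is the highest of all.

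The cytosolic chaperonin TRiC, which folds actin and tubulin, had 2 of its subunit genes lower among 14 genes of TRiC and prefoldin. CCT4 averaged 318 ± 4.13 CPM at 100 µM and 349 ± 15.4 CPM in untreated cells (-0.14, edgeR adjusted p = 0.0208), and CCT6A 1008 ± 22.2 CPM at 100 µM and 1097 ± 46.8 CPM in untreated cells (-0.12, adjusted p = 0.0374). The prefoldin gene PFDN2 was higher at 0.22 (adjusted p = 0.0287), and PFDN6, at 0.15 (adjusted p = 0.0515), was the 1 partner gene called at 10 µM (0.23, adjusted p = 0.023). The CCT4 call ended without any 1 of untreated replicates 1 and 2 and the 100 µM replicates 1 and 2 (adjusted p up to 0.129) and with limma on unfiltered FPKM (0.0675), the CCT6A call in 8 of 21 cases of 1 library left out (up to 0.288), with limma (0.0673) and with only the 6 libraries compared (0.0607), and the PFDN2 call without untreated replicate 2 or the 100 µM replicates 1 or 2 (up to 0.176), with limma (0.0818) and with length offsets (0.15).

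Of the mitochondrial list, GRPEL2 was the 1 gene called. It encodes a nucleotide exchange factor of the matrix HSP70 and averaged 43.7 ± 0.587 CPM at 100 µM and 30.2 ± 2.49 CPM in untreated cells (SD, n = 3 each), a log2 fold change of 0.53 (SE 0.05, edgeR adjusted p = 1.42e-08) that held in every alternative and with each library left out. It was also higher against the lower doses (0.44, adjusted p = 7.9e-10). The matrix HSP70 gene HSPA9 itself was at 0.01 (SE 0.03, adjusted p = 0.939), and its other exchange factor GRPEL1 at 0.01 (adjusted p = 0.914). Of the 12 genes tested in this list, 1 was higher, 0 were lower and the median was 0.07; LONP1, a matrix protease, was at 0.15 (adjusted p = 0.0527), the co-chaperone DNAJA3 at 0.11 (adjusted p = 0.0592) and HTRA2, an intermembrane protease, at 0.14 (adjusted p = 0.208). LONP1, DNAJA3 and PFDN6 were called by DESeq2 (0.0377, 0.0296 and 0.0382) and with a filter at 1 CPM (0.0415, 0.0346 and 0.0394). Of the other heat shock factors and their partners, 4 of 5 were tested, HSBP1L1 was lower at -0.19 (adjusted p = 0.0147), and HSF2 (-0.13, adjusted p = 0.239), HSBP1 (-0.05, adjusted p = 0.528) and HSF4 (-0.12, adjusted p = 0.682) were not called. The HSBP1L1 call ended without untreated replicate 1 (0.0589) or the 100 µM replicate 1 (0.107). Of the partner genes called, BAG2, HSPA4L, HSPA14, DNAJB4, CHORDC1, CRYAB, CCT4, PFDN2, PFDN6, GRPEL2 and HSBP1L1 overlap genes on the other strand, and HSPA4, HSPA4L, HSPA14, DNAJB4, CCT6A and PFDN6 genes on their own.

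Genes with a heat shock element in their promoter window can be set beside these values. Of 45 tested genes with a triple other than the members, 11.1% were called lower and 4.44% higher at 100 µM against untreated cells, and of 1412 with a pair, 5.95% and 4.04%. Over the 10399 tested genes matched to a window, the shares were 5.71% lower and 4.15% higher. The 11.1% is 5 genes.

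Cell type markers at the same dose were as follows. The summed epithelial markers were 4030.2 to 4152 CPM at 100 µM and 4205 to 4559 CPM in untreated cells, and 1 of 3 tested was called lower, with 3 of 6 at 0 to 83 reads in all (EPCAM at 0 and KRT19 at 1). The summed mesenchymal markers were 1307 to 1352 CPM at 100 µM and 1390.2 to 1404 CPM in untreated cells, with 2 of 5 tested lower (COL3A1 and PDGFRB), VIM at a log2 fold change of 0.0018, COL1A1 at 0.20 (adjusted p = 0.0539) and COL1A2 at 1 read in all. Hepatocyte markers summed to 11.0 to 12.4 CPM at 100 µM and 11.2 to 11.6 CPM in untreated cells, nearly all of it FOXA1. Their part in the chaperone values was not tested.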

How the data were processed

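The deposited counts are whole numbers of reads per gene, not normalized, and a second deposited table holds FPKM computed by the authors. The submitters' processing notes list HISAT2, DESeq2 and GRCh38 with no role; the counting tool and its strand setting are not given in these sources. RNA was selected with poly(dT) beads, per the labels' protocols.

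Counts were fitted with edgeR 4.0.16 (R 4.3.3): filterByExpr, TMM, a robust quasi-likelihood model of 7 groups and 21 libraries with 14 residual degrees of freedom, adjustment over 16196 genes and a threshold of 0.05. The slope was fitted to the 18 treated libraries. A standard error is the fold change over the root of F. Every within-dose pair of libraries differed beyond counting noise (chi-square over degrees of freedom, 2.69 to 12.3), so all were kept. Alternatives used DESeq2 1.42.0 and limma 3.58.1. The dose contrasts and the slope were tested on simulated data. The 10 genes and the lists were chosen with earlier results of these data known; of each partner list, the 4 genes with the smallest p at 100 µM are named, and DNAJB4, HSPBP1, FKBP5, HSP90AB1, HSPA9 and GRPEL1 were added after their values were seen. Promoter windows are from RefSeq and exons from GENCODE v29. One gene with a profile like that of HSPA8 is not reported here.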

Additional observations from a re-analysis of the deposited data

How the results depend on the processing

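At 100 µM against 0 µM, the calls of HSPA8, DNAJA1 and HSPA1A stood under all 15 alternatives and with each of the 21 libraries left out; HSPA8 ranged from -0.34 to -0.28. The number of the 10 genes called ranged from 4 to 7 over the alternatives and from 3 to 7 with a library left out, with 3 without untreated replicate 2 and without the 100 µM replicate 1. Against the lower doses it ranged from 2 to 6 with a library left out. HSPA1B was called with no filter (adjusted p = 0.0226), length offsets (0.0403, and 0.0223 with the block), length and GC offsets with the block (0.039), only 6 libraries (0.0321) and without the 100 µM replicate 2 (0.0366), and DNAJB1 with length and GC offsets (0.00132).

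At 10 µM against 0 µM, 1 gene was called by DESeq2, with no filter, and with length and GC offsets with the replicate block, and 0 to 1 with a library left out; at 1 µM, 1 with no filter. Over 7 groups limma called 3, 3 and 2 genes and leaving out a library 3 to 7; over treated doses limma called 2 each time, length and GC offsets 3 and leaving out a library 2 to 5. For the slope, DESeq2 and length and GC offsets called 3, the filter at 1 CPM and those offsets with the block 2, limma and summed copies 0, the contrast 5, and leaving out a library 0 to 4. The ratio of HSPD1 to HSPE1 differed by -1.90 in counts in place of FPKM (-0.89). FPKM divides counts by gene length, so the ratio in counts is that in FPKM times the same factor in every library. The larger difference in counts is therefore a matter of scale and not a dependence on the processing.

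Signs turned for HSPB1 (0.01) with length offsets (-0.038, and -0.037 with the block), with GC added (-0.11 both times, adjusted p = 0.0116 and 0.0126), and with libraries left out (-0.052 to 0.0696). With length and GC offsets, without and then with the block, they turned for CDC37 (-0.0019 and -0.0018; against lower doses -0.013 both times), HSBP1 (0.010 and 0.011) and PFDN6 against lower doses (-0.0092 and -0.0088). With a library left out, HSF4 ran from -0.25 to 0.085 and, against lower doses, from -0.043 to 0.112, CDC37 from -0.021 to 0.035 and PFDN6 from -0.027 to 0.0601. Of these sign changes only that of HSPB1 with GC offsets was called, and the cause was not tested. The offsets with GC, robust moderation off and the slope as a contrast were chosen after seeing the data.

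Libraries with the same replicate number did not deviate together: of 63 such pairs 0 had r over 0.1 (-0.095 to 0.0751), and 8 of 21 libraries correlated best with their own number. With the number as a replicate block, edgeR called 6 of the 10 genes at 100 µM, as without it.

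All-gene counts at 100 µM were 879 to 1598 over the alternatives and 699 to 1822 with a library left out, beside 1390, and at 10 µM 14 to 302 and 7 to 164, beside 52. In the same order they were 1239 to 2274 and 773 to 1968 against the lower doses, beside 1632, 387 to 1415 and 361 to 1144 over 7 groups, beside 753, 404 to 1285 and 354 to 1027 over treated doses, beside 717, and 136 to 721 and 181 to 469 for the slope, beside 425. A floor of 3 counts is 0.0686 to 0.107 CPM, far below all 10 genes, so the spread of 3 libraries a group is the limit.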
